A study of Drosophila melanogaster with 58 samples.

Results

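Moxifloxacin Hydrochloride, a fluoroquinolone antibiotic, was fed to fruit flies, and transcript levels in their heads were set against those of flies fed 6 other compounds, all without the convulsant pentylenetetrazole (PTZ). The members are the 2 arrays that carry the moxifloxacin label, of 58 arrays in the study, and they were chosen by that label alone. The reference is the mean of the group means of Levetiracetam, Glucosamine Hydrochloride, Mannitol, Olmesartan Medoxonil, Gemfibrozil and Quinapril Hydrochloride, with 4 arrays each and 24 in all. Every group consisted of adult unmated males of Oregon R, a wild-type laboratory strain of Drosophila melanogaster. The flies were 3 to 4 days old at the start, were fed for 7 days at 25 degrees C with 30 flies to a vial, and were 10 days old when the heads were taken. The groups differed by the compound in the food, and the sources used here state no doses. The 15 groups of the study also include normal food, PTZ alone and combinations of PTZ with a compound; the comparison leaves them out, and normal food is given beside it as a further reference. Whether replicate arrays stem from separate vials of flies is not said in the labels, and the p-values then measure only array-to-array spread, part of which may be technical.

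Fluoroquinolones kill bacteria by trapping DNA gyrase and topoisomerase IV on cut DNA. In mammals, moxifloxacin is known to lengthen cardiac repolarization by blocking the hERG potassium channel, whose fly relative is sei, and the class is known for seizures at high exposure, which have been linked to GABA-A receptor antagonism. Mitochondria carry bacterial-like DNA and ribosomes, and effects of fluoroquinolones on mitochondrial DNA topology, metal chelation and collagen have been described in mammalian cells. Of the compounds in the reference, levetiracetam is an antiepileptic that binds a synaptic vesicle protein, glucosamine is an amino sugar and mannitol a sugar alcohol. Olmesartan blocks the angiotensin receptor, gemfibrozil is a lipid-lowering fibrate and quinapril inhibits angiotensin-converting enzyme.

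Values are log2 levels, so that a difference of 1 is a 2-fold difference, and differences are given ± SE. A probe set was called where the limma fit over all 58 arrays gave a Benjamini-Hochberg adjusted p below 0.05 over 18769 probe sets. It was termed apart where it was called and both moxifloxacin arrays lay outside the range of the 24 reference arrays. Probe sets were not tested against background; array medians lay near 3.8, and the size of a change to or from levels of about 2 to 4 is uncertain. Precision is limited by the number of arrays, and with 2 for moxifloxacin no spread within that group could be judged gene by gene.

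The 2 moxifloxacin arrays differed from each other by a median of 0.10 per probe set, and 304 probe sets differed by over 0.5. Each had the other as its closest match by correlation among the 58 arrays. The signal of bioB, a bacterial transcript spiked in at hybridization, fell into an upper and a lower class when set against bioC. The upper class held both moxifloxacin arrays, all 4 arrays of mannitol and of gemfibrozil, and 1 each of olmesartan and quinapril, and the lower class held the other reference arrays. The 5′ minus 3′ signal of the control transcripts, a measure of RNA length, was -6.21 ± 0.076 (SD, n = 2) for moxifloxacin. It was -6.16 ± 0.15 (SD, n = 4) for gemfibrozil, -5.84 to -5.50 for the means of the other compounds and -6.42 ± 0.22 (SD, n = 4) for normal food. Of the head markers, 3 of 4 measured neuronal genes (elav, nSyb and brp) and 2 of 3 photoreceptor genes were called lower, and 3 of 4 glial genes were called higher. The summed levels of all 3 types lay within the range of the reference arrays: 10.53 to 10.54 within 10.46 to 11.29 for neurons, 13.98 to 13.99 within 13.94 to 14.19 for photoreceptors and 12.45 to 12.49 within 12.15 to 12.59 for glia. Of 4 measured head fat body markers 3 were called higher and 1 lower, with a summed level of 13.81 within 13.64 to 13.91. The part of these measures in the results below was not tested, apart from the references and covariate named there.

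Moxifloxacin differed from the mean of the 6 compounds at many probe sets, mostly by small amounts. It was higher at 3752 probe sets (20% of those tested) and lower at 4045 (21.6%), while 107 of the called probe sets were at least 2-fold higher and 111 at least 2-fold lower. Both arrays lay above all 24 reference arrays at 1299 called probe sets (6.92%) and below all of them at 1558 (8.3%). Among the 11982 genes with a symbol, each represented by its brightest probe set, 23.2% were higher and 26.3% lower, with 8.51% apart above and 10.4% apart below. These 4 percentages are the background over all genes for the lists that follow, and the shares differed by level, as given below. The median difference over the genes was -0.0035.

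The 6 compounds also differed among themselves. With the 7 group means as units, so that the error is the spread between compounds, 27 probe sets were called higher (0.144%) and 6 lower (0.032%), against 1532 and 1654 at an unadjusted p below 0.05. Taken singly, each compound gave a similar share of called probe sets against moxifloxacin, 41.6% for levetiracetam, 40.3% for glucosamine, 40.2% for mannitol, 38.4% for olmesartan, 38% for gemfibrozil and 42.4% for quinapril. These 6 comparisons share the moxifloxacin arrays.

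Moxifloxacin stood outside the other groups at more probe sets than any of the 6 did. Its mean lay at least 0.5 above all the other group means at 133 probe sets and at least 0.5 below at 224, together 1.9% of those tested. The same measure gave 79 probe sets (0.421%) for gemfibrozil, 67 (0.357%) for levetiracetam, 35 (0.186%) for quinapril, 29 (0.155%) for mannitol, 27 (0.144%) for olmesartan and 1 (0.00533%) for glucosamine. When each group was reduced to its replicates 1 and 2, moxifloxacin had 130 above and 237 below, and the next group, levetiracetam and gemfibrozil alike in the sum, had 26 and 63 or 23 and 66. No test was run on these counts.

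**Figure D1:**
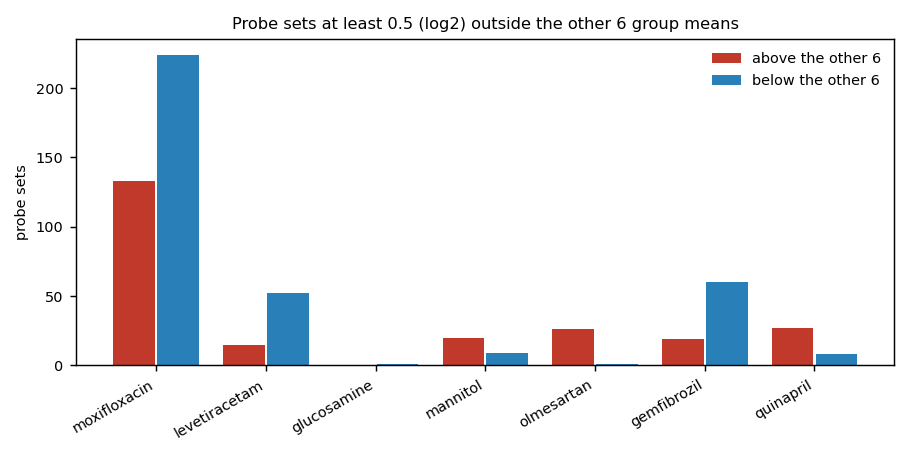
Bars give the number of probe sets (vertical axis) at which the mean of the named group lay at least 0.5 on the log2 scale above (red) or below (blue) the means of the other 6 compound groups. Moxifloxacin, with 133 above and 224 below, has the tallest bars of both colours.

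The direction of the difference depended on how bright a gene was. Of the 2262 genes with a reference level of 4 to 6, 16.5% were higher and 40.7% lower in moxifloxacin, with a median difference of -0.14. Of the 2800 genes at 6 to 8, 27.7% were higher and 43.9% lower, with a median difference of -0.083. Of the 1680 genes at 8 to 10, 40.1% were higher and 34.7% lower, and of the 469 at 10 to 12, 45.6% were higher and 32.6% lower. Genes under 4, of which there were 4687, were called least often, 15% higher and 5.01% lower. The median reference level is given beside most of the lists below, and the shares at that level are a closer background than those over all genes.

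The largest rises were in genes of the male reproductive tract and in genes known here by number only. CG14645 was at 11.08 and 10.97 in the moxifloxacin arrays, against a lowest level of 2.82, a median of 3.35 and a highest level of 5.86 in the 24 reference arrays. The difference was 7.35 ± 0.14, which is 163-fold (adjusted p = 7.8e-40), and the arrays did not overlap. CG34324 was at 7.92 and 7.81 against 2.14, 2.67 and 3.95 (lowest, median and highest), a difference of 5.01 ± 0.14. Muc68D, a member of the mucin group of heavily glycosylated secreted proteins, was at 8.06 and 7.81 against 2.72, 3.05 and 3.63, a difference of 4.81 ± 0.12. For these 3 genes the nearest group was gemfibrozil, and moxifloxacin also exceeded normal food, where their means were 8.54, 6.0 and 4.85.

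Genes of the seminal fluid formed the next set, several of them of the ejaculatory duct and bulb, which add to the fluid before transfer. Dup99B, a ductus peptide related to sex peptide, which changes female behaviour after mating, was at 7.04 and 7.23 against 2.08, 2.81 and 4.91, a difference of 4.06 ± 0.11. Normal food, in contrast to its position for other tract genes, had Dup99B at 2.43 ± 0.20 (SD, n = 4). Anp (Andropin), an antibacterial peptide of the ejaculatory duct, was at 6.72 and 6.85 against 2.49, 2.80 and 3.93, a difference of 3.81 ± 0.11. Obp51a, an odorant-binding protein family member, was at 6.90 and 6.95 against 2.30, 2.62 and 4.08, a difference of 4.06 ± 0.11. EbpII, an ejaculatory bulb protein, was at 7.13 and 7.24 against 1.74, 3.26 and 6.48, a difference of 3.64 ± 0.12. Its highest reference arrays were those of gemfibrozil, at a mean of 6.31, and normal food was higher still, at 10.03.

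The other named rises were Acbp5, an acyl-CoA-binding protein (3.10 ± 0.10), CG43101 (2.85 ± 0.13), CG31226 (2.67 ± 0.10), the serpin Spn77Bb (2.37 ± 0.14) and CG4783 (2.22 ± 0.09). CG4783 was at 7.89 and 7.90 in moxifloxacin against 5.0, 5.52 and 6.39 in the reference arrays, and at 6.05 in normal food. Named rises had to lie above all 24 reference arrays. This rule leaves out genes that levetiracetam arrays reached, such as SP (3.65 ± 0.12) and Acp53Ea (3.60 ± 0.12). Of the 12 named rises, 9 had gemfibrozil as the nearest group, a count that depends on this rule. Of the same 12, 5 (CG14645, CG34324, Muc68D, Dup99B and CG4783) lay above normal food. The remaining 7 lay below it and changed sign with normal food as the reference. Against the spread between compounds, 7 of the 12 were called: CG14645, CG34324, Muc68D, Obp51a, Anp, Acbp5 and CG43101, with Muc68D at an adjusted p of 1e-04.

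**Figure D2:**
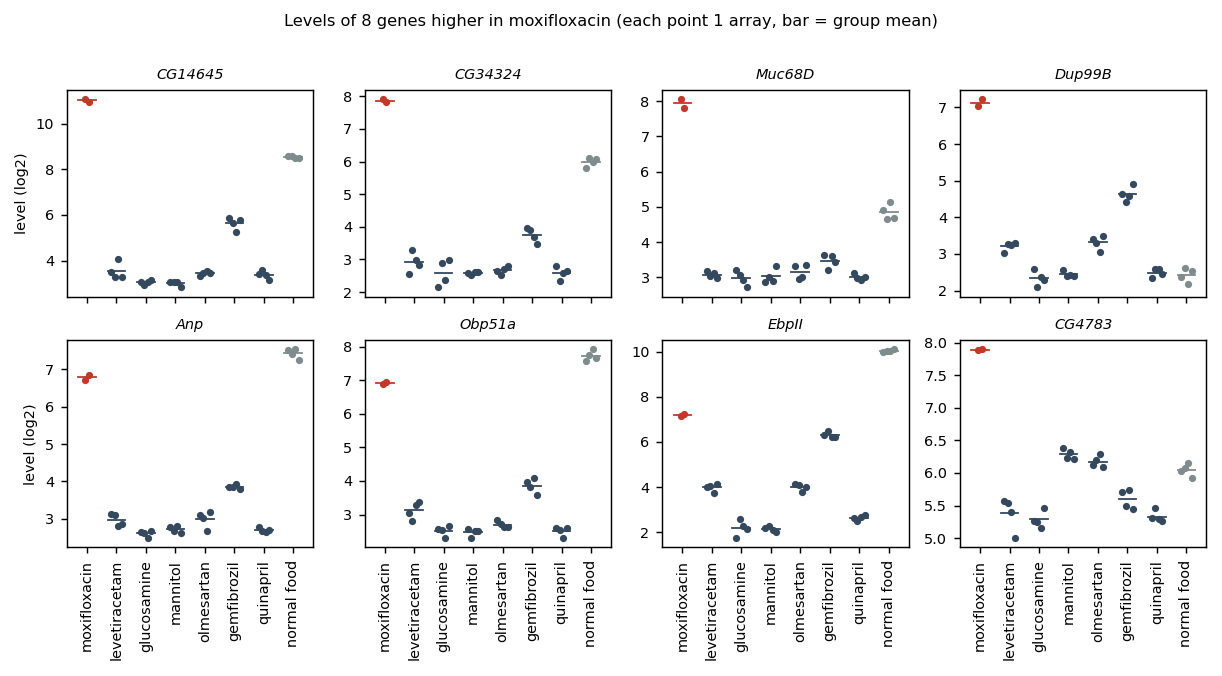
Each panel plots the log2 level of 1 gene (vertical axis) by group (horizontal axis); points are arrays, bars are group means, moxifloxacin is red, the 6 reference compounds dark and normal food grey. The moxifloxacin arrays lie above all 24 reference arrays in each of the 8 panels, which was the condition for choosing these genes. Gemfibrozil is often the next compound, and Dup99B is low in normal food.

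Across the list of accessory gland and ejaculatory genes, 21 of 27 members were called higher and 1 lower (EbpIII), with 7 apart above and a median difference of 1.82. The members were dim in the reference, at a median level of 3.20. The members differed in how close levetiracetam lay, as a few chosen after their values were seen show. SP (sex peptide) was at 7.54 and 7.55 in moxifloxacin, and the levetiracetam arrays reached 7.60, so the groups overlapped. Acp53Ea, at 6.86 and 6.74, and Acp53C14a, at 6.67 and 6.77, were likewise matched by arrays at 6.99 and 6.87. Against levetiracetam alone, SP differed by 0.075 (adjusted p = 0.73), whereas Dup99B differed by 3.93 (1.7e-29), Anp by 3.81 (3.4e-29) and EbpII by 3.20 (6.4e-25). In that comparison 8 of 27 members were higher and 3 lower, with a median of 0.037. The higher ones also included the accessory gland genes Acp76A (1.05), Acp29AB (0.75) and Acp36DE (0.55), and genes of the gland were not tested against those of the duct and bulb. Against gemfibrozil alone, 19 were higher and 2 lower, with a median of 1.08.

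Markers of other tissues outside the head moved with these genes. In the list of testis and sperm genes, 14 of 26 were higher, 0 lower and 1 apart above, with a median difference of 0.32 at a median reference level of 3.01. Of these, ocn, a sperm-associated gene, was at 4.53 and 4.67 and Mst84Dc, of the sperm tail, at 5.11 and 5.02, and both overlapped the levetiracetam arrays, which reached 5.02 and 5.37. In the list of gut digestive enzymes, 13 of 31 were higher and 3 lower, 6 of them apart above, with a median of 0.17 at a level of 3.12. The serine protease gene Jon65Aiii was at 4.41 and 4.40 against 2.75, 3.33 and 4.11, and the trypsin gene alphaTry at 4.12 and 4.26 against 2.57, 2.96 and 4.20.

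Over the 7 markers of accessory gland and ejaculatory bulb, all measured and all called higher, the summed level was 10.14 to 10.20 in moxifloxacin, 5.25 to 10.42 in the 24 reference arrays and 11.96 to 12.03 in normal food. Over the 8 testis markers, of which 7 were called higher, it was 7.14 to 7.20, 5.99 to 7.29 and 8.90 to 8.98. Over the 5 gut markers, of which 4 were called higher, it was 6.92 to 6.96, 5.80 to 7.07 and 8.48 to 8.68. With normal food as the reference the accessory gland and ejaculatory list turned to 4 higher and 17 lower, the testis list to 0 and 18, and the gut list to 2 and 18. Among all genes that reference gave 21.5% higher and 23.9% lower, the background for each count against normal food here and below. Fewer cells of a type and less RNA per cell cannot be told apart in these head samples, and the part of tissue from outside the head in the rises was not tested.

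Cyp4g1, a cytochrome P450 of the oenocytes that makes cuticular hydrocarbons, was at 9.39 and 9.22 against 3.86, 6.32 and 9.34, a difference of 3.01 ± 0.12. Its olmesartan mean of 9.30 lay close to the moxifloxacin mean of 9.31, and the groups overlapped. FASN3, a fatty acid synthase of oenocytes, was at 4.84 and 5.02 against 3.25, 3.72 and 4.31, a difference of 1.15 ± 0.14, and the arrays did not overlap. Both genes were higher in normal food, at 10.04 and 5.51.

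The 27 probe sets called higher against the spread between compounds included the brightest probe sets of 26 genes, of which 19 lay below a level of 6 in moxifloxacin. Of the 26, 13 exceeded normal food. Beyond those named above, CG31077 was 2.20 higher than the reference, at a level of 4.48 against 2.22 in normal food, and CG43673 was 2.49 higher. The 6 genes called lower were Prp16 and Prp39, which act in mRNA splicing, the nuclear pore gene Nup54, Arc2, CG14823 and CG3803, by between -0.98 and -0.76. All 6 also lay below normal food. The genes of this paragraph were chosen after their values were seen.

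The largest falls were smaller than the largest rises, and 16 of the 17 named falls also lay below normal food. Ank2, a neuronal ankyrin that anchors membrane proteins to the cytoskeleton, was at 7.43 and 7.47 against 8.20, 9.67 and 10.21, a difference of -1.95 ± 0.05. It had 4 further probe sets, of which 1 was called in the same direction and 1 in the opposite one. B52, a splicing factor of the SR family, was at 5.12 and 4.89 against 5.42, 6.79 and 7.00, a difference of -1.53 ± 0.08, and all 4 of its further probe sets were called lower as well. Rbp6, an RNA-binding protein, differed by -1.67 ± 0.08, and none of its 5 further probe sets was called. For these 3 genes gemfibrozil was the nearest group.

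RpL34a, a protein of the large ribosomal subunit, was at 7.46 and 7.27 against 7.90, 8.71 and 9.75, a difference of -1.47 ± 0.05. The dehydrogenase family member CG2065 differed by -1.32 ± 0.05, EMC7, of the endoplasmic reticulum membrane complex, by -1.30 ± 0.06, CG13698 by -1.27 ± 0.08 and Xe7 by -1.21 ± 0.06. CG6912 was at 6.86 and 6.92 against 7.68, 8.22 and 8.43, a difference of -1.23 ± 0.05, and CG7378 also fell by 1.23 ± 0.07. By the gap to the nearest compound, tobi came first. This glucosidase gene, a target of insulin and glucagon-like signalling in the fat body, was at 7.19 and 7.30 against 7.98, 8.31 and 8.73, a difference of -1.10 ± 0.07, while normal food was at 7.09. The cuticle gene TwdlG (-1.12 ± 0.07), CG14414 (-1.20 ± 0.07), Ciz1 (-1.08 ± 0.06) and scaf6 (-1.07 ± 0.07) followed, and the 3 further probe sets of scaf6 were not called. None of the 17 falls was called against the spread between compounds, where the lowest adjusted p was 0.072, that of tobi.

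**Figure D3:**
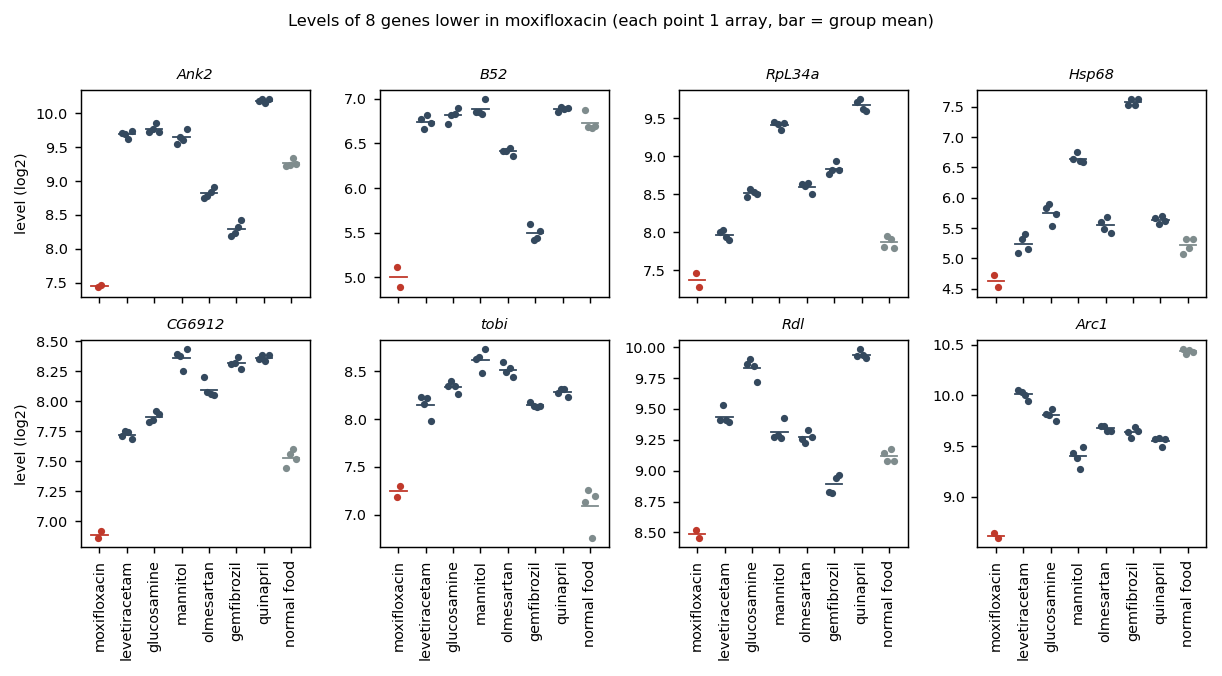
Each panel plots the log2 level of 1 gene (vertical axis) by group (horizontal axis); points are arrays, bars are group means, moxifloxacin is red, the 6 reference compounds dark and normal food grey. Both moxifloxacin arrays lie below all 24 reference arrays in each of the 8 panels, with normal food close to them for tobi and far above them for Arc1. The named falls among these genes were chosen by that condition.

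Genes of protein synthesis, respiration and protein breakdown were lower more often than higher. Mitochondrial ribosomal proteins, which make the respiratory subunits encoded in mitochondrial DNA, were lower at 46 of 69 genes and higher at 10, with 25 apart below, 2 apart above and a median difference of -0.33 at a median reference level of 7.26. mRpS9 was at 7.00 and 6.97 against 7.65, 8.03 and 8.34, a difference of -1.03 ± 0.05 without overlap, while mRpS5 was at 10.63 and 10.61 against 9.61, 9.87 and 10.20, a difference of 0.73 ± 0.04. Cytosolic ribosomal proteins were lower at 20 of 34 genes and higher at 8, with 16 apart below, 4 apart above and a median of -0.27 at a level of 12.5. RpL28 was at 10.36 and 10.45 against 10.63, 11.66 and 12.12, a difference of -1.20 ± 0.04, whereas RpL39 differed by 0.18 ± 0.03.

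Subunits of oxidative phosphorylation were lower at 40 of 72 genes and higher at 11, with 15 apart below, 1 apart above and a median of -0.22 at a level of 9.59. The complex I subunits ND-13B, at 6.99 and 7.16 against 7.38, 8.28 and 8.82, and ND-B22, at 8.44 and 8.48 against 8.55, 9.62 and 10.20, differed by -1.12 ± 0.06 and -1.10 ± 0.04. Proteasome subunits, which degrade tagged proteins, were lower at 23 of 40 and higher at 2, with 8 apart below and a median of -0.27 at a level of 7.19. Rpn3, of the regulatory particle, was at 5.98 and 6.19 against 6.36, 6.94 and 7.47, a difference of -0.87 ± 0.05. Among 11 genes that maintain mitochondrial DNA, 6 were lower and 0 higher, at a level of 6.05. With the 5′ minus 3′ signal as a covariate 3 were lower and 1 higher, beside 20.4% and 21.3% of all genes. After a second quantile normalization 4 were lower and 1 higher, beside 23.6% and 24.9% of all genes. The largest differences were -0.64 ± 0.06 for bsf, an RNA-binding protein of mitochondria, and -0.41 ± 0.05 for the protease Lon, both without overlap.

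The position of these lists relative to the 6 compounds and to normal food was not the same. As the median deviation of the members from the reference, mitochondrial ribosomal genes stood at -0.38 and -0.31 in the moxifloxacin arrays, -0.28 to -0.21 in levetiracetam, -0.17 or above in the other compounds, and at -0.35 to -0.31 in normal food. Oxidative phosphorylation genes stood at -0.24 and -0.20, within the levetiracetam range of -0.27 to -0.18. Cytosolic ribosomal genes stood at -0.27 and -0.26, below the lowest levetiracetam array at -0.14 and the lowest normal food array at -0.14. With normal food as the reference the counts were 24 higher and 20 lower for mitochondrial ribosomal genes, 30 and 28 for oxidative phosphorylation, 8 and 15 for cytosolic ribosomal genes and 13 and 6 for the proteasome, against 21.5% and 23.9% of all genes.

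**Figure D4:**
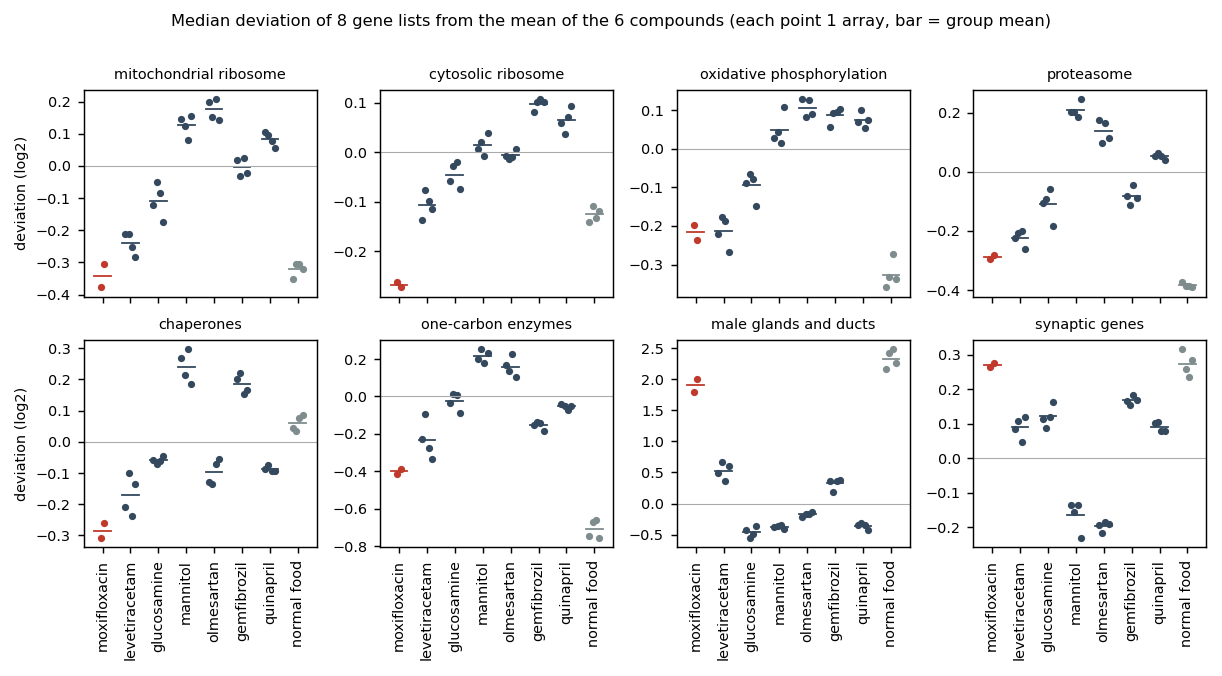
Each panel plots, for 1 gene list, the median over its members of the level minus the mean of the 6 compounds (vertical axis, log2) by group (horizontal axis); points are arrays, bars are group means, moxifloxacin is red, the reference compounds dark and normal food grey. Moxifloxacin is the lowest or close to the lowest compound in the first 6 panels and the highest in the last 2. In the chaperone panel normal food, at 0.036 to 0.085, lies above moxifloxacin, at -0.31 and -0.26.

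Heat shock proteins and other chaperones, which hold and refold damaged proteins, were mostly lower than the mean of the 6 compounds and than in normal food. Of 11 genes, 8 were lower, 1 was higher (Hsc70-5, 0.21 ± 0.04) and 4 were apart below, with a median of -0.27 at a level of 9.59. With normal food as the reference 9 were lower and 1 higher. Hsp68 was at 4.73 and 4.52 against 5.09, 5.69 and 7.63, a difference of -1.44 ± 0.09, and gemfibrozil was highest, at a mean of 7.58. Hsp26 was at 5.71 and 5.57 against 5.96, 6.68 and 8.51, a difference of -1.31 ± 0.08. Normal food was at 5.22 for Hsp68 and 6.02 for Hsp26. Among 15 antioxidant genes 9 were lower and 4 higher, at a level of 8.32; Trxr1, thioredoxin reductase, was at 7.63 and 7.54 against 8.0, 8.36 and 8.67, a difference of -0.74 ± 0.06 without overlap.

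Of 3 groups of metabolic enzymes most members were lower than the mean of the 6 compounds, and of 2 of these groups most were higher than in normal food. Genes of methionine, glycine and folate one-carbon metabolism, which supply methyl groups and nucleotide precursors, were lower at 11 of 13 and higher at 1, with 6 apart below and a median of -0.41 at a level of 6.70. With normal food as the reference 10 were higher and 0 lower. Ahcy, which clears S-adenosylhomocysteine, was at 5.90 and 5.60 against 6.04, 6.44 and 6.72, a difference of -0.70 ± 0.09. Sam-S, which makes S-adenosylmethionine, was the exception at 11.90 and 11.90 against 11.53, 11.61 and 11.69, a difference of 0.28 ± 0.04. Genes of gluconeogenesis, trehalose and polyol metabolism were lower at 7 of 10 and higher at 3 (Treh, Tret1-1 and G6P), with 4 apart below and a median of -0.54 at a level of 8.89. Against normal food 4 of these 10 were higher, 1 was lower and the rest were not called. Tps1, which makes trehalose, the blood sugar of insects, was at 8.79 and 8.82 against 9.10, 9.63 and 10.23, a difference of -0.89 ± 0.05. Fatty acid beta-oxidation and peroxisome genes were lower at 12 of 20 and higher at 2, with 5 apart below, at a level of 7.77. The level of this list was 7.62 and 7.61 in the moxifloxacin arrays, and levetiracetam stood at 7.61. Against normal food 13 of the 20 were higher and 1 was lower. With the 5′ minus 3′ signal as a covariate 8 of the 20 were lower and 3 higher, beside 20.4% and 21.3% of all genes.

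Genes of the synaptic vesicle cycle, through which neurons release transmitter, moved in both directions. Of 18 genes 12 were higher and 4 lower, with 9 apart above, 2 apart below and a median of 0.27 at a level of 10.1. Snap25, a membrane fusion protein, was at 12.67 and 12.71 against 11.85, 12.18 and 12.36, a difference of 0.55 ± 0.04. Syn, which tethers vesicles in reserve, was at 10.49 and 10.48 against 9.67, 9.90 and 10.30, a difference of 0.53 ± 0.05. In both genes the moxifloxacin arrays lay above all 24 others. nSyb, the vesicle partner of Snap25, was at 7.41 and 7.56 against 7.53, 8.86 and 9.18, a difference of -1.08 ± 0.06, and overlapped the lowest of gemfibrozil. brp, the active zone scaffold Bruchpilot, was at 5.33 and 5.20 against 5.54, 5.95 and 6.54, a difference of -0.75 ± 0.09. Of its 3 further probe sets 1 was called, in the same direction. With normal food as the reference, 5 synaptic genes were higher and 5 lower, and brp was at 5.20 there.

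Pan-neuronal markers were lower at 5 of 11, with 1 apart below (brp), at a level of 9.28. The 1 higher was Appl, the amyloid precursor-like protein (0.26 ± 0.03). Gemfibrozil means lay below those of moxifloxacin for elav (8.14 against 8.42), futsch (9.16 against 9.20) and para (4.84 against 4.92). They lay above them for nSyb (7.59 against 7.49) and brp (5.62 against 5.27). Glia markers were higher at 8 of 13 and lower at 3, with 4 apart above, at a level of 8.59. alrm, an astrocyte gene, was at 9.97 and 9.92 against 8.35, 9.20 and 9.73, a difference of 0.86 ± 0.04, and nrv2, a sodium pump subunit of glia, at 11.33 and 11.17 against 10.20, 10.62 and 10.99, a difference of 0.63 ± 0.07. Both arrays lay above the reference in each, and mannitol was the nearest compound. loco, a regulator of G protein signalling in glia, differed by -0.31 ± 0.06.

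The GABA system, the main inhibitory pathway of the fly brain, held 5 genes that were higher and 4 that were lower among 10. Gat, the GABA transporter of astrocytes, was at 6.80 and 6.77 against 5.07, 5.79 and 6.33, a difference of 1.09 ± 0.07 (adjusted p = 2.4e-17). Rdl, the main subunit of GABA-gated chloride channels, was at 8.52 and 8.46 against 8.82, 9.40 and 9.98, a difference of -0.96 ± 0.05 (adjusted p = 8.4e-22). Neither overlapped the reference, and normal food lay within its range, at 5.81 for Gat and 9.12 for Rdl. Lcch3, a further subunit of such channels, was at 7.89 and 7.87 against 7.80, 8.07 and 8.54, a difference of -0.26 ± 0.04 with overlap. The related subunit gene Grd, at 2.08 and 2.12, was near the bottom of the scale and not called (-0.02 ± 0.08). VGAT, which loads GABA into vesicles, was at 4.63 and 4.58 against 3.57, 4.33 and 4.85, a difference of 0.36 ± 0.13 that was not called without moxifloxacin replicate 1 (adjusted p = 0.16) or 2 (0.098). Against the spread between compounds the adjusted p was 0.19 for Gat and 0.22 for Rdl.

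**Figure D5:**
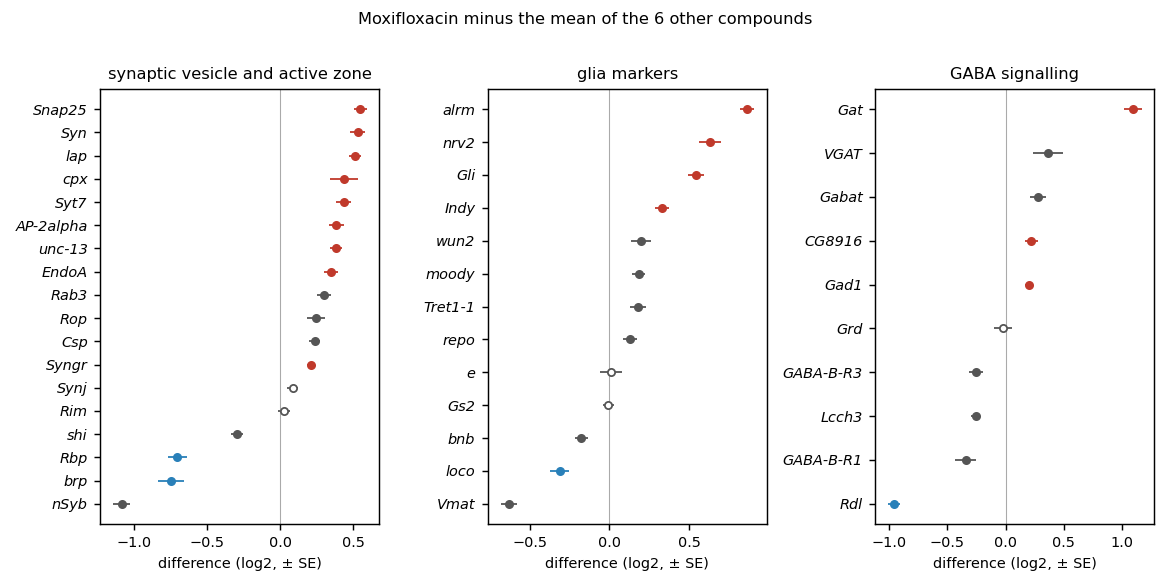
Points give the log2 difference of moxifloxacin from the mean of the 6 compounds (horizontal axis, bars ± SE) for each measured gene of 3 lists; filled points were called, open points were not, and red or blue marks genes whose moxifloxacin arrays lie above or below all 24 reference arrays. Gat and Rdl lie at the opposite ends of the GABA panel. In the synaptic panel nSyb, brp and Rbp stand away from the other points, and nSyb overlapped the reference arrays.

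Among the fly relatives of mammalian fluoroquinolone targets that have a named probe set, Rdl had the largest difference. sei, the relative of hERG, was at 7.60 and 7.69 against 7.60, 7.79 and 8.18, a difference of -0.20 ± 0.04 (adjusted p = 2.5e-05) with overlap. The related potassium channels eag (0.02 ± 0.10) and Elk (-0.16 ± 0.13) were not called. Among 15 voltage-gated channel genes 8 were lower and 3 higher, with 3 apart below, at a level of 7.40; the potassium channel Shaw was at 4.66 and 4.82 against 5.02, 5.29 and 6.05, a difference of -0.67 ± 0.07, and tipE, a sodium channel accessory gene, differed by 0.45 ± 0.11, a call lost without moxifloxacin replicate 1 (0.29, adjusted p = 0.12) and, at 0.24, also when the 5′ minus 3′ signal was a covariate (adjusted p = 0.11). Top1, a nuclear topoisomerase, was at 4.95 and 4.86 against 4.60, 4.91 and 5.07, a difference of -0.01 ± 0.10 that was not called. Top3alpha was at 3.87 and 4.17 against 4.13, 4.54 and 5.06, a difference of -0.50 ± 0.11 with overlap, not called without moxifloxacin replicate 1 (-0.35, adjusted p = 0.065). Of 7 topoisomerase and helicase genes 2 were lower, Top3alpha and Top3beta (-0.23 ± 0.07), and 0 higher. Top3beta was not called without moxifloxacin replicate 1 (adjusted p = 0.11) or 2 (0.0501), with that covariate (0.06) or after a second quantile normalization (0.39). Top2 has no named probe set here, and the values of Top1, Top3alpha and Top3beta do not stand in for it.

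Genes that follow neuronal activity were split. sr (stripe), an immediate early transcription factor, was at 7.56 and 7.68 against 6.54, 6.78 and 7.48, a difference of 0.76 ± 0.09, and Hr38, a nuclear receptor gene also induced by activity, at 8.02 and 7.94 against 6.98, 7.43 and 7.77, a difference of 0.57 ± 0.05. Normal food was at 7.48 for sr and 7.49 for Hr38. Arc1, a capsid-forming gene that carries RNA between cells, was at 8.64 and 8.59 against 9.28, 9.65 and 10.06, a difference of -1.06 ± 0.04, with normal food at 10.44. Arc2 was at 4.01 and 4.05 against 4.57, 4.79 and 5.08, a difference of -0.76 ± 0.09. None of the 4 overlapped the reference. Over the list of 13 genes, 4 were higher and 3 lower, with a median difference of 0.060, which was -0.22 with normal food as the reference.

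Among neuromodulators, neuropeptide genes were higher at 12 of 26 and lower at 7, with 3 apart above and 0 apart below. sNPF, a peptide of feeding and sleep circuits, was at 10.15 and 10.23 against 9.05, 9.47 and 9.96, a difference of 0.72 ± 0.09. Its mean in normal food was 9.93. Monoamine genes were lower at 9 of 17 and higher at 3, at a level of 7.20. ple, the tyrosine hydroxylase of dopamine synthesis, was at 6.68 and 6.80 against 5.64, 6.16 and 6.54, and Pu, which makes its cofactor, at 10.88 and 10.86 against 9.98, 10.23 and 10.61, differences of 0.59 ± 0.08 and 0.60 ± 0.06 without overlap. The dopamine and ecdysteroid receptor DopEcR was at 8.21 and 8.19 against 7.72, 9.38 and 9.53, a difference of -0.89 ± 0.04, and here gemfibrozil was lower still. In the retina list 4 of 13 were higher and 6 lower; trpl, a light-activated channel of photoreceptors, was at 10.35 and 10.35 against 10.68, 11.30 and 11.88, a difference of -0.98 ± 0.04. Clock genes were lower at 4 of 10 and higher at 1, with per at -0.65 ± 0.07 and cyc at -0.55 ± 0.08, both apart below.

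The list of antimicrobial peptide genes, the secreted arm of fly immunity, leaves out Anp. That gene is counted with the ejaculatory genes and was apart above (3.81 ± 0.11). No member of the antimicrobial list was apart from the 24 arrays. Of 17, 5 were higher and 2 lower; Def was at 8.78 and 8.80 against 7.67, 8.33 and 9.55, a difference of 0.40 ± 0.05, and Listericin at 10.20 and 10.11 against 10.07, 10.82 and 11.18, a difference of -0.61 ± 0.04. With normal food as the reference 11 were higher and 1 lower. In the Imd pathway, which senses bacterial peptidoglycan, 7 of 15 were lower and 5 higher, with 4 and 3 apart and a median of -0.13, which was 0.026 with the 5′ minus 3′ signal as a covariate. The median level of this list was 6.43 to 6.81 in the 6 compounds. The caspase Dredd was at 5.97 and 6.02 against 6.30, 6.63 and 7.01, a difference of -0.65 ± 0.07, and its partner Fadd at 6.13 and 6.01 against 5.09, 5.57 and 5.82, a difference of 0.52 ± 0.09. PGRP-LF, an inhibitory receptor, differed by 0.37 ± 0.07 and PGRP-LA by -0.65 ± 0.06.

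Among detoxification genes the share called lower was 25.9% for cytochrome P450 genes, 37.1% for glutathione S-transferases, 17.1% for UDP-glycosyltransferases and 12.5% for drug transporters, beside 26.3% of all genes, and no test was run on these shares. Cytochrome P450 genes were higher at 22 of 81 and lower at 21, against 36 and 13 with normal food as the reference, and the falls included Cyp9c1 (-1.07 ± 0.09) and Cyp6w1, at 9.38 and 9.46 against 9.93, 10.23 and 10.86. Glutathione S-transferases were lower at 13 of 35 and higher at 7, against 4 and 17 with normal food; GstE3 was at 8.65 and 8.76 against 9.17, 9.64 and 10.60, a difference of -1.02 ± 0.04. UDP-glycosyltransferases were higher at 9 of 35 and lower at 6, with Ugt50B3 at 0.78 ± 0.08. Drug transporter genes were higher at 4 of 16 and lower at 2, and all called differences lay between -0.25 and 0.27.

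Metal handling genes were higher at 8 of 28 and lower at 6, at a median level of 5.86 to 6.15 in the 6 compounds. MtnC, a metallothionein that binds copper and zinc, was at 5.55 and 5.79 against 2.16, 2.55 and 4.10, a difference of 2.89 ± 0.11 without overlap, and at 6.50 in normal food. MtnD was at 7.09 and 7.23 against 5.52, 6.54 and 7.28, with overlap, and fh (frataxin), of iron-sulphur cluster assembly, differed by -0.72 ± 0.08. DNA damage and cell death genes were lower at 7 of 21 and higher at 4. Their median level was 4.93 to 5.27 in the 6 compounds, and of all genes at 4 to 6, 40.7% were lower and 16.5% higher. With the 5′ minus 3′ signal as a covariate 2 were lower and 5 higher, beside 20.4% and 21.3% of all genes. Irbp18, whose protein pairs with Xrp1 in the damage response, was at 9.20 and 9.12 against 8.34, 8.45 and 8.78, a difference of 0.68 ± 0.04, and grim, a death gene, at 3.94 and 3.76 against 2.97, 3.27 and 3.73, a difference of 0.54 ± 0.10. The kinase genes tefu and lok differed by -0.46 ± 0.08 and -0.41 ± 0.09, and lok was not called without moxifloxacin replicate 2 (-0.21, adjusted p = 0.22) or with the RNA length measure as a covariate (-0.22, adjusted p = 0.092). Collagen, basement membrane and prolyl hydroxylase genes were lower at 5 of 22 and higher at 4, with LanB2 at 0.46 ± 0.06 and Pxn at -0.67 ± 0.07.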

How the data were processed

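Head RNA (250 ng) from 58 samples was labelled with a 3′ IVT kit and hybridized to Affymetrix Drosophila Genome 2.0 arrays, per the labels' protocols. The authors deposited 1 normalized log2 value per probe set and array; the submitters' processing notes name RMA and limma, with no versions, and no genome build is given in the sources used here. The table holds 18952 probe sets, of which 183 AFFX controls were left out. Of the 18769 tested, 13647 carry 1 gene symbol in the platform annotation, 402 several and 4720 none, and only those with 1 symbol were named. Symbols were updated through RefSeq identifiers for 13544.

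R 4.3.3 and limma 3.58.1 fitted 1 mean per group over all 58 arrays (43 residual and 3.88 prior degrees of freedom). The contrast was moxifloxacin minus the mean of the 6 group means, with Benjamini-Hochberg adjustment over all probe sets. A second limma fit used the 7 group means as units (5 residual and 2.71 prior degrees of freedom). Further contrasts set moxifloxacin against each compound. The code was tested on simulated data.

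Named genes were the 12 largest rises and 12 largest falls, and the 8 and 8 with the largest gap to the nearest group, among apart probe sets with a level of at least 6. Up to 4 called members of each list and fixed drug target relatives were added. A few members were added after their values were seen: elav, Rbp, SP, Acp53Ea, Acp53C14a and the genes singled out in the text. The members and lists were chosen with earlier results of these data known. Replicate numbers did not pair the arrays: the difference between replicates 1 and 2 of moxifloxacin correlated with that of the other compounds at -0.022 to 0.028. Figures were drawn with matplotlib 3.10.9.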

Additional observations from a re-analysis of the deposited data

Results flagged for a closer look

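Among the 113 named genes, 1 array stood far from the other 3 of its compound in 36 of 678 groups tested (5.31%), where chance flags about 1 in 20. The moxifloxacin group, with 2 arrays, could not be tested in this way.

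In levetiracetam the flagged arrays were those for Top3alpha (replicate 1, 5.06), Elk (replicate 1, 3.56), Rdl (replicate 2, 9.53), Acp53Ea (replicate 1, 6.99), Appl (replicate 3, 11.49), Arc2 (replicate 3, 5.08), CG14823 (replicate 1, 7.28), Dredd (replicate 3, 6.60), LanB2 (replicate 4, 7.51) and mRpS5 (replicate 3, 9.64). In mannitol they were those for CG14645 (replicate 4, 2.82), Rdl (replicate 4, 9.43), CG14823 (replicate 4, 7.15), CG43673 (replicate 2, 2.50), DopEcR (replicate 4, 9.41), Dredd (replicate 3, 6.38), Fadd (replicate 3, 5.58) and Ugt50B3 (replicate 4, 6.82). In gemfibrozil they were those for tobi (replicate 1, 8.17), Top3alpha (replicate 2, 4.63), CG3803 (replicate 4, 5.43), Prp16 (replicate 4, 4.87), Syn (replicate 1, 10.18) and elav (replicate 2, 7.93).

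In quinapril they were those for CG43101 (replicate 3, 3.56), Acp53Ea (replicate 1, 2.16), Arc1 (replicate 3, 9.49), ND-13B (replicate 3, 8.54), PGRP-LF (replicate 1, 6.395), Pxn (replicate 2, 6.73) and tipE (replicate 4, 7.41). In olmesartan they were those for Hsc70-5 (replicate 1, 10.50), LanB2 (replicate 4, 7.25) and RpL28 (replicate 2, 11.56), and in glucosamine those for CG43101 (replicate 3, 2.92) and Ugt50B3 (replicate 4, 7.19).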

How the results depend on the processing

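The counts against the mean of the 6 compounds, 3752 higher and 4045 lower, stayed within 1.5 times under each alternative that kept arrays as units; with group means as units they were 27 and 6. The replicate block gave 3709 and 4071 and changed no call among the 113 named genes; normal food as the reference gave 3311 and 3727, and leaving out 1 array gave 2836 to 3769 and 3273 to 4089.

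The counts of apart probe sets rose where fewer reference arrays had to be passed: 3141 above and 3546 below for normal food, 2159 and 2625 with only arrays at the upper bioB level, and 2551 and 2836 with mannitol and gemfibrozil alone, a reference chosen after seeing the data. The counts against the spread between compounds, 27 higher and 6 lower, were less stable. They were 13 and 0 without the 40% dimmest probe sets, 70 and 41 without levetiracetam, 10 and 0 without glucosamine, 9 and 0 without mannitol, and 8 and 0 without olmesartan and without quinapril. The lower count was 3 without gemfibrozil, 3 after a second quantile normalization and 2 with a variance trend and robust prior. Leaving out 1 array gave 23 to 59 higher and 4 to 49 lower, with 59 and 49 without moxifloxacin replicate 1, 28 lower without moxifloxacin replicate 2 and 14 lower without olmesartan replicate 4. Apart from the fewer groups or arrays these settings use, the cause was not tested.

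Of the 113 named genes, 109 were called, and no called direction turned under any alternative run except normal food as the reference, which turned 24; the dim filter left 6 untested. Those values were -0.79 for Obp51a, -0.63 for Anp, -2.85 for EbpII, -1.57 for Acbp5, -0.51 for CG43101, -2.51 for CG31226, -0.77 for Spn77Bb, 0.16 for tobi, -0.79 for Acp53C14a, -0.53 for Acp53Ea, 0.51 for Ahcy, -0.73 for Cyp4g1, 0.50 for EbpIII, -0.58 for FASN3, -0.13 for Hsc70-5, -1.79 for Jon65Aiii, 0.091 for Listericin, -2.37 for Mst84Dc, -0.83 for MtnC, -0.83 for SP, -0.36 for alphaTry, 0.068 for brp, 0.25 for bsf and -2.31 for ocn. Of the 24, 20 were called there and 4 were not: tobi (adjusted p = 0.16), Listericin (0.15), alphaTry (0.12) and brp (0.68). Another 17 kept their sign and were not called. With only arrays at the upper bioB level no call changed among the 113, and the 5′ to 3′ covariate lost 3. With group means as units 94 were no longer called.

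Of the 47 gene lists, the sign of the median turned for 26 with normal food as the reference, for 9 with the 5′ to 3′ covariate, 5 at the upper bioB level, 4 after a second quantile normalization, 4 without either moxifloxacin array and at most 4 under each other alternative. Apart from normal food and the Imd list under the covariate (-0.13 to 0.026), the medians that turned lay within 0.1 of 0 in the main comparison. Over all genes the covariate gave 21.3% higher and 20.4% lower, and the second quantile normalization 24.9% and 23.6%, in place of 23.2% and 26.3%.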

Other observations

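The remaining gene lists of the head gave the following counts, beside 23.2% higher and 26.3% lower among all genes. In the fat body list 5 of 17 were higher and 8 lower, with 6 apart below, among them tobi and Lsd-1, the perilipin of lipid droplets, at 8.31 and 8.35 against 8.54, 8.98 and 9.94. CG14125 was the largest rise of that list, at 4.29 and 4.30 against 2.31, 2.54 and 3.16. The 4 measured head fat body markers given earlier leaned the other way, with 3 higher and 1 lower. Genes of fatty acid synthesis and storage were higher at 8 of 22 and lower at 9, with 6 apart above and 4 apart below. Glycolysis genes were lower at 6 of 11 and higher at 1, and Hex-A, the hexokinase, was at 8.65 and 8.66 against 8.26, 9.58 and 10.07. In the insulin, FOXO and starvation list 4 of 20 were higher and 6 lower, and purine synthesis genes were higher at 3 of 9 and lower at 2.

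Odorant-binding protein genes were higher at 18 of 48 and lower at 11, with 4 apart in each direction, and olfactory and ionotropic receptor genes were higher at 5 of 110 and lower at 5, most of them at the bottom of the scale. Cuticle protein genes were higher at 13 of 104 and lower at 13, haemocyte markers at 4 and 3 of 13, and muscle markers at 7 and 6 of 17. Glutamate and cholinergic signalling genes were each higher at 5 of 14 and lower at 5; Ekar, a kainate-type receptor subunit, was at 9.75 and 9.83 against 9.16, 9.34 and 9.54, and nAChRalpha3, a nicotinic receptor subunit, at 5.18 and 5.56 against 5.64, 5.89 and 6.29. Among Turandot and JAK/STAT genes 3 of 10 were higher and 0 lower, with Stat92E, the pathway's transcription factor, at 10.81 and 10.77 against 10.26, 10.30 and 10.52. Of 3 lysozyme genes 1 was higher, LysX, at 2.67 and 2.67.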
